A study of Homo sapiens with 6 samples.

Results

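RNA-seq of U2OS cells, a human osteosarcoma line, compared 1 library of untreated cells with 1 library of cells irradiated with 5 Gy. A gene was a member of the comparison when it had at least 100 counts in either library, with the intergenic line of each table left out, and 12977 of the 32383 genes listed in either library met this rule. The 2 RNA-seq libraries are part of a series of 6 that also holds iCLIP, the sequencing of RNA crosslinked to a protein, for FLAG-tagged TIRR (2 libraries untreated and 2 irradiated). The labels describe the RNA-seq cells as WT and grown in medium with serum, the control without treatment and the irradiated ones given X-rays and 4 h of recovery. For RNA-seq, gamma rays are named in the series' design text instead. The iCLIP cells carry a stably transfected FLAG-TIRR, and their irradiated libraries have the same dose, X-ray source and recovery time in the labels. Both RNA-seq samples are of the same line, and nothing states how many dishes went into each. With 1 library a side no test between conditions is possible, so each ratio below is a size with a 95% counting interval, and differences between cultures were not measured.

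Ionising radiation breaks DNA, and the kinases ATM and ATR then stabilise the transcription factor p53, which switches on genes of cell cycle arrest, repair, cell death and its own inhibition. Cells that arrest in G2 phase or G1 phase lower many genes of mitosis, whose promoters often carry a cell cycle genes homology region, or CHR, bound by MuvB complexes (DREAM in arrested cells, B-MYB and FOXM1 in dividing ones). p21, the product of CDKN1A, inhibits the kinases that otherwise keep DREAM apart.

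Depth was nearly equal. The untreated library held 23401311 counts, of which 13015406 lay on genes, and the irradiated library held 23407174, of which 13023903 lay on genes. TMM scaling changed the sizes by less than 1.5% (factors 0.995 and 1.01), and the median ratio of irradiated to untreated over the 12977 members was 0.998. Of 26 markers of osteoblasts and mesenchymal cells 19 had at least 100 counts, with a summed level of 10910 CPM (counts scaled to a library of 1000000) before and 11890 CPM after irradiation, to which COL1A1 added 2768 and 3376 CPM and FN1 1754 and 2296 CPM. Defining markers of osteoblasts were missing or nearly so: SP7, IBSP and NT5E had no row in either table, BGLAP had 3 and 4 counts, COL1A2 6 and 2, and TWIST1 3 and 1. None of 11 haematopoietic and 7 endothelial markers reached 100 counts (summed levels 6.03 and 6.72 CPM, and 9.27 and 8.33 CPM). Of 10 epithelial markers 5 did (548.5 and 509.7 CPM in sum), and of 8 neural markers 5 did (227.5 and 302.4 CPM), with NEFL at a ratio of 1.66.

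Most genes kept their level within a narrow range. The central 50% of the members had ratios from 0.894 to 1.11 and the central 90% from 0.706 to 1.38. At this depth small differences exceed counting error easily: the interval excluded 1 in 42.4% of members, 2647 above and 2860 below. A size rule was therefore used, a TMM-scaled ratio of at least 2 with an interval wholly above 1.5, or the mirror of it. It was met upward by 112 members (0.863%) and downward by 81 members (0.624%), and of these 193 genes 18 carry clone identifiers only and are not named. XPC at 2.001, LINC00294 at 2.007 and DUSP1 at 2.01 lay just inside the rule upward, and XPC-AS1 at 1.999 and ZNF79 at 1.993 just outside. Downward, MTUS1 at 0.497 and ARHGEF39 at 0.497 lay just inside, and TRIM59 and KANTR at 0.502 just outside. At the count minimum itself 33 genes had exactly 100 counts in their higher library, with ratios from 0.593 to 3.30, and 44 genes had 1 count fewer, with ratios from 0.559 to 4.45. A gene such as KLLN, with 13 and 113 counts, entered only through the irradiated library.

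**Figure D1:**
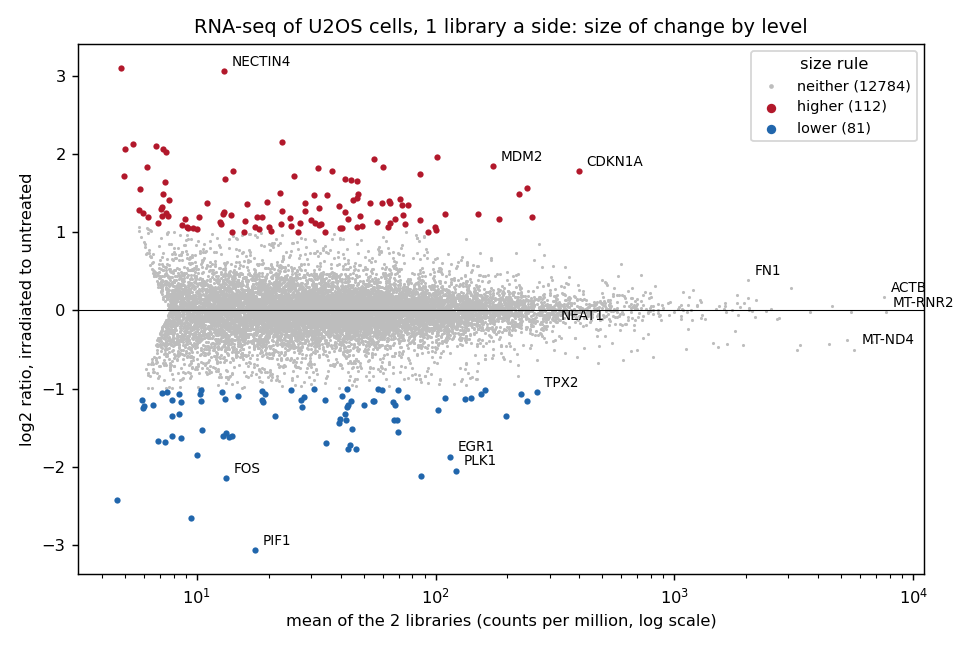
The log2 ratio of irradiated to untreated (vertical) against the mean level of the 2 libraries in CPM (horizontal, log scale) for 12977 genes, each point 1 gene. The 112 genes past the size rule upward are red and the 81 downward blue, and the grey cloud narrows from left to right as counts grow.

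The clearest groups were p53 targets, which were higher, and mitotic genes, which were lower. The 6 lists of p53 target genes together held 123 members, of which 40 were past the rule upward, 0 downward and 110 had a ratio above 1 (median 1.60, against 0.998 over all members). The 5 lists of mitotic genes together held 118 members, of which 27 were past the rule downward, 0 upward and 106 had a ratio below 1 (median 0.681). Of the names on the p53 lists, 16 of 17 (arrest), 20 of 24 (death), 13 of 13 (repair), 23 of 26 (metabolism) and 46 of 54 (other) had at least 100 counts in either library, and all but 2 of the names on the mitotic lists. The feedback list has 12 such genes among 15 names, of which WIP1 and PIRH2 are older names of PPM1D and RCHY1, already counted. A gene low in untreated cells could enter only by being higher after irradiation, so these counts describe the lists and support nothing further. These groups account for 40 of the 112 higher and 27 of the 81 lower genes, and 66 higher and 47 lower genes belonged to none of the 49 lists used.

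**Figure D2:**
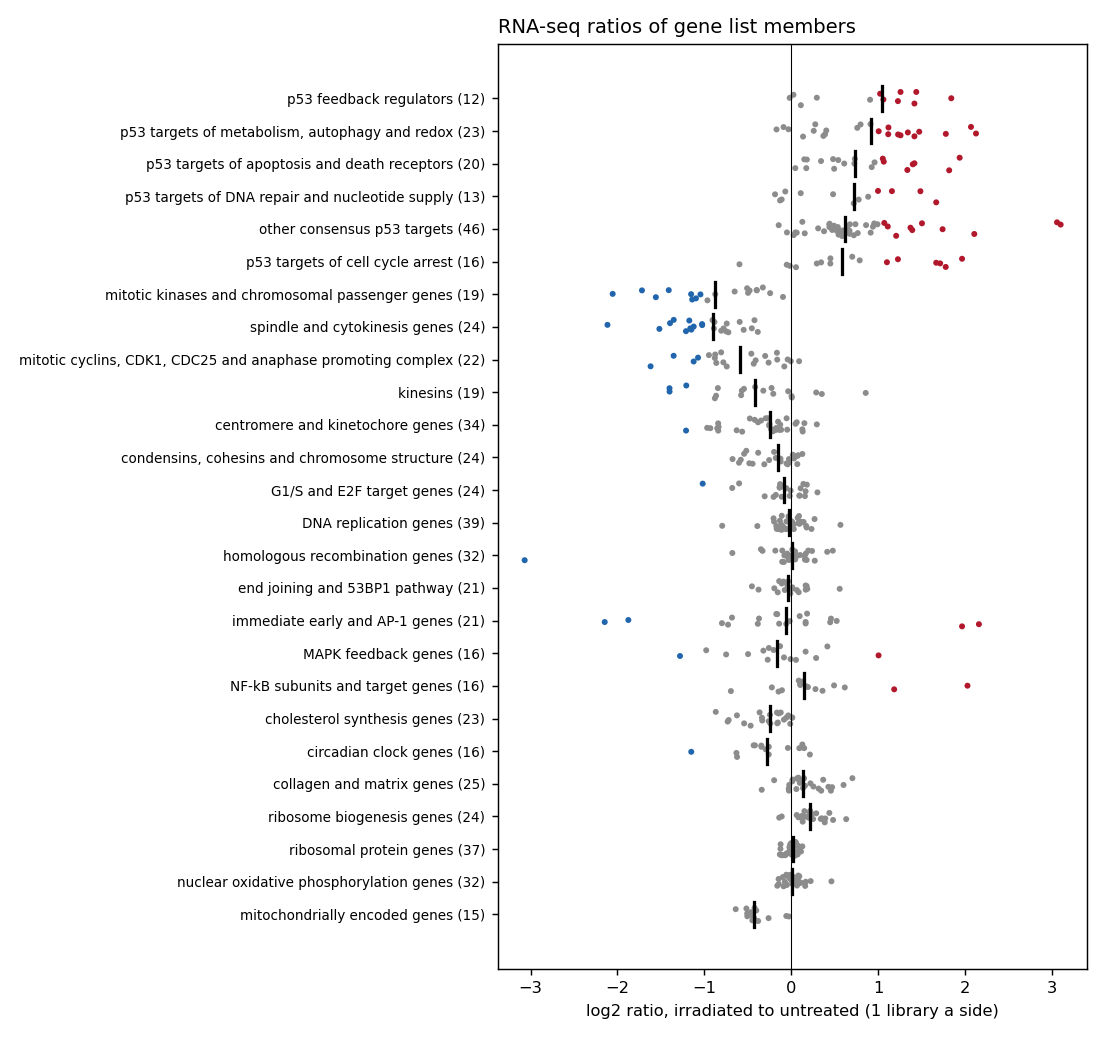
Log2 ratio of irradiated to untreated (horizontal) for the members of 26 gene lists (rows, number of members in brackets), each point 1 gene and each black bar the list's median. Red points are past the size rule upward and blue points downward, the p53 lists have medians of 1.499 to 2.06 as ratios, and the mitotic lists 0.537 to 0.847.

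Genes that restrain or feed back on p53 had the highest median of the p53 lists, 2.06 over 12 members, with 7 past the rule. MDM2, the ubiquitin ligase that marks p53 for destruction, went from 981 to 3562 counts. PPM1D, the phosphatase WIP1 that switches damage signalling off, went from 1164 to 2762 counts, a ratio of 2.35 (95% interval 2.19 to 2.51). ZMAT3, an RNA-binding protein and p53 target, went from 860 to 1770 counts (2.03, 1.87 to 2.21), and FBXO22, a ubiquitin ligase subunit, from 532 to 1124 (2.09, 1.88 to 2.32). PURPL, a long noncoding RNA that limits p53 levels, went from 327 to 898 counts (2.72, 2.39 to 3.09). The deposited table gives PURPL a length of 279281 bases, and its RefSeq span (chr5:27472292-27496401) is shorter. Not all regulators of p53 moved: MDM4 had a ratio of 1.08 (0.939 to 1.24), COP1 1.02 (0.894 to 1.16) and RCHY1 0.989 (0.798 to 1.22), the last 2 also ubiquitin ligases for p53.

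Among 16 members of cell cycle arrest, 6 were past the rule upward and the median was 1.499. CDKN1A had the most counts, 2335 before and 8111 after. GADD45A, a stress sensor that inhibits CDK1, went from 273 to 879 counts (3.18, 2.78 to 3.66), the kinase gene PLK3 from 155 to 515 (3.29, 2.74 to 3.96), and FBXW7, which targets cyclin E for destruction, from 272 to 591 (2.15, 1.86 to 2.49). The related kinase gene PLK2 (863 and 1509 counts, 1.73) and E2F7, a transcriptional repressor (720 and 1186 counts, 1.63), were higher by less than the rule asks. SFN, which encodes 14-3-3 sigma, had 2384 and 3299 counts, a ratio of 1.37 (1.30 to 1.44). CCNG2, a cyclin-like gene of resting cells, was the lowest of the list, at 842 counts untreated and 564 irradiated (0.662, 0.594 to 0.738).

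All 20 members of the cell death list had a ratio above 1 and 7 were past the rule (median 1.66). The level of response differed widely within it. BBC3, which encodes the BH3 protein PUMA, went from 184 to 657 counts (3.53, 2.99 to 4.18), whereas PMAIP1, which encodes the related NOXA, went from 648 to 740 (1.13, 1.02 to 1.26). The receptor genes FAS (297 and 1153 counts, 3.84) and EDA2R (342 and 719, 2.08) were past the rule, and TNFRSF10B, the receptor for TRAIL, was just below it with 743 and 1430 counts (1.90, 1.74 to 2.08). TRIAP1, a small protein that counters apoptosis, went from 289 to 739 counts (2.53, 2.20 to 2.91). BAX, the pore-forming effector, had 1133 and 1616 counts (1.41, 1.31 to 1.52), and APAF1, the core of the apoptosome, 292 and 375 (1.27, 1.09 to 1.49). TNFRSF10C had 33 and 32 counts and was below the minimum, as were TNFRSF10A, TNFRSF10D and TP53AIP1.

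In the list of p53 targets for DNA repair and nucleotide supply, 4 of 13 members were past the rule (median 1.65). RRM2B, a subunit of ribonucleotide reductase that serves repair outside S phase, had the most counts of them, 1526 before and 4332 after (2.81, 2.65 to 2.98), while the S phase subunit RRM2 had 5722 and 5531 (0.956, 0.921 to 0.992). POLH, the polymerase that copies past damaged bases, went from 689 to 1558 counts (2.24, 2.04 to 2.45). Of the 2 damage sensors of nucleotide excision repair, XPC went from 804 to 1627 counts and DDB2 from 1107 to 1846 (1.65, 1.53 to 1.78). RPA1, MGMT and FANCC lay between 0.880 and 0.928, where MGMT rested on 113 and 106 counts and its interval (0.705 to 1.22) includes 1.

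The list for metabolism, autophagy and redox balance had 11 of 23 members past the rule and a median of 1.89. SESN1 and SESN2, the sestrins that restrain mTORC1, went from 216 to 751 counts (3.44, 2.95 to 4.02) and from 532 to 1366 (2.54, 2.29 to 2.81). DRAM1, a lysosomal protein of autophagy, went from 212 to 596 counts (2.78, 2.37 to 3.27), and TIGAR, which lowers glycolytic flux, from 320 to 775 (2.40, 2.10 to 2.74). FDXR, the mitochondrial ferredoxin reductase, went from 847 to 2012 counts (2.35, 2.17 to 2.55). The carboxylesterase gene CES2 (526 and 1155 counts, 2.17), CMBL (255 and 561, 2.17) and PANK1, the first enzyme of coenzyme A synthesis (228 and 464, 2.01), were also past it. DDIT4, another restraint of mTORC1, was not higher, with 622 and 560 counts (0.890, 0.793 to 0.9996).

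Of 46 other consensus p53 targets, 10 were past the rule upward and 44 had a ratio above 1 (median 1.54). Several encode ligands or cell surface proteins. TGFA, a ligand of the EGF receptor, went from 510 to 1728 counts (3.35, 3.03 to 3.71), and KITLG, the ligand of KIT, from 204 to 535 (2.59, 2.20 to 3.06). SUSD6 went from 609 to 1332 counts (2.16, 1.96 to 2.38), and the actin regulator gene EPS8L2 from 392 to 834 (2.10, 1.86 to 2.38). PLXNB2, a semaphorin receptor gene, had a modest ratio of 1.51 (1.46 to 1.56) and yet 1 of the 10 largest gains in level, from 474.5 to 715.7 CPM. PML and TP53I13 had ratios of 1.02 and 0.968.

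A p53 response element was searched in the RefSeq promoters (assembly GRCh38.p14) from 250 bases before to 50 after the gene start, on both strands, as the 20-base consensus with no spacer and at most 3 mismatches, none of them in the C and G of the cores. It was present in 6 of 74 promoters of higher genes (8.11%), in 1 of 58 of lower genes (1.72%) and in 99 of the 9508 members with a promoter in the table (1.04%), and in 1.05% of all 27305 promoters. With at most 2 mismatches the shares were 4.05%, 0% and 0.231% of members. The 4 stretches below are shown because they hold the match, in capitals, in promoters of higher genes of different function: 2 long noncoding RNA genes, the skin barrier gene FLG and the enzyme gene FDXR. They lie at chr5:27472135-27472214 (PURPL, plus strand, 0 mismatches), chr1:9182114-9182193 (LNCTAM34A, plus, 0), chr1:152325378-152325457 (FLG, minus, 2) and chr17:74872966-74873045 (FDXR, minus, 3).
PURPL: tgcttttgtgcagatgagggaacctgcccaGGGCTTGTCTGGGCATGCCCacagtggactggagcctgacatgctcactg
LNCTAM34A: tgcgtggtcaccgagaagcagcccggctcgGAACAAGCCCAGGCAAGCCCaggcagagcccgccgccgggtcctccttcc
FLG: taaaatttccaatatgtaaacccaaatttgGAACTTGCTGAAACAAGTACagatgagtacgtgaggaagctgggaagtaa
FDXR: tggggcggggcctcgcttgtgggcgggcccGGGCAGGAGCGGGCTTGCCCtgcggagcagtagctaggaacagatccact
The match ends 108 bases before the start in PURPL, 41 in LNCTAM34A, 169 in FLG and 2 in FDXR. LNCTAM34A and MIR34AHG, the host of the p53-induced microRNA gene MIR34A, start head to head and overlap, and both were past the rule, with 38 and 113 counts (2.94, 2.02 to 4.37) and 148 and 343 counts (2.29, 1.89 to 2.80). FLG had 71 and 161 counts (2.24, 1.69 to 3.01). Most higher genes had no match in this window of 300 bases, which says nothing of sites in introns or farther away.

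Mitotic genes were lower to different degrees by role. The members of the spindle and cytokinesis list had the lowest median, 0.537, with 11 of 24 past the rule, and all 24 had a ratio below 1. The kinases and chromosomal passenger genes had a median of 0.546 with 8 of 19 past the rule and all 19 below 1. The mitotic cyclins with CDK1, the CDC25 phosphatases and the anaphase promoting complex had 0.663 (4 of 22), the kinesins 0.751 (3 of 19), the centromere and kinetochore genes 0.847 (1 of 34), and the condensins, cohesins and other chromosome structure genes 0.902 (0 of 24). In a bulk library, fewer cells in mitosis and less RNA of these genes per cell cannot be told apart.

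Among the kinases, NEK2, which separates centrosomes, went from 868 to 267 counts (3.29-fold lower, 2.86 to 3.78), and AURKA, the Aurora A kinase of the spindle poles, from 1341 to 461 (2.94-fold lower, 2.64 to 3.28). BORA and TPX2, which activate Aurora A, went from 336 to 153 counts (2.22-fold lower) and from 4619 to 2266 (2.06-fold lower, 1.96 to 2.17). CDCA8, the passenger subunit borealin, was 2.65-fold lower (1302 and 496 counts), whereas its partners in the same complex were less so: INCENP had a ratio of 0.546, AURKB of 0.704 and BIRC5, which encodes survivin, of 0.710. The checkpoint kinase genes BUB1 (2360 and 1084 counts, 2.20-fold lower) and TTK (714 and 338, 2.14-fold lower) were past the rule and BUB1B (1093 and 567, 0.513) was not. WEE1, which holds CDK1 inactive, had 751 and 484 counts, a ratio of 0.637, and MASTL 828 and 785, a ratio of 0.938.

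CDK1 and its activators separated. CDK1 had 1647 and 1578 counts, a ratio of 0.947 (0.884 to 1.02), while CCNB1, its cyclin, went from 4000 to 1925 (2.10-fold lower, 1.99 to 2.22) and CDC25C, the phosphatase that activates it, from 267 to 88 (3.07-fold lower, 2.40 to 3.95). CDC25B had a ratio of 0.582 and CDC25A, which acts mainly before S phase, 0.893 (0.778 to 1.02). CCNA2 and CCNB2 had ratios of 0.544 and 0.546. CDC20, which activates the anaphase promoting complex, went from 3666 to 1452 counts (2.55-fold lower, 2.40 to 2.71), and FZR1, which takes over late in mitosis, from 761 to 580 (0.754). Core subunits of that complex stayed closer to 1, with ANAPC1 at 1.07, CDC23 at 0.998, CDC16 at 0.973 and CDC27 at 0.813.

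Of the spindle genes, KIF20A, a kinesin of the central spindle, was lowest, and SAPCD2, a spindle orientation gene, and PSRC1, a microtubule regulator gene, followed, with 857 and 303 counts (2.86-fold lower) and 743 and 286 counts (2.63-fold lower, 2.29 to 3.02). DLGAP5 (2495 and 1160 counts, 2.17-fold lower), CEP55, which recruits the abscission machinery (2802 and 1393, 2.03-fold lower), and ASPM (1226 and 536, 2.31-fold lower) were past the rule. ANLN, an abundant ring protein gene, had 4641 and 3598 counts and the highest ratio of this list, 0.767. Among the kinesins, KIF14 (788 and 302 counts, 2.64-fold lower), CENPE (1262 and 484, 2.64-fold lower) and KIF18A (776 and 340, 2.31-fold lower) were past the rule. Kinesins of cargo transport were not lower as a rule: KIF1A had a ratio of 1.81 (1.54 to 2.14), KIF3B of 1.28 and KIF1B of 1.01, and KIF5B, with 4025 and 3483 counts, of 0.856. At the centromere CENPA, the histone variant that marks it, was 2.31-fold lower (910 and 398 counts), and its loading factor HJURP and the outer kinetochore genes NDC80 and NUF2 had ratios of 0.559, 0.525 and 0.561. CENPH, CENPK and CENPQ, which are only some of the inner kinetochore genes of this list, had ratios of 1.11, 1.05 and 1.23. The intervals of CENPH and CENPK include 1, and CENPQ was the highest of the list. Of its 34 members 28 had a ratio below 1 and 6 above, so these genes do not stand for the inner kinetochore.

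The CHR, searched as TTTGAA or TTCGAA on both strands in the same 300 bases, was present in 25 of 58 promoters of lower genes (43.1%), 6 of 74 of higher genes (8.11%) and 11.1% of members. In all 27305 promoters it was present in 16.6%. The CCAAT box bound by NF-Y was present in 62.1%, 36.5% and 36.4% of lower genes, higher genes and members, and both motifs together in 34.5%, 2.70% and 4.86%. Within the 5 mitotic lists 15 of 22 promoters of genes past the rule held a CHR (68.2%), and so did 43 of 78 promoters of mitotic genes that were not past it (55.1%). The lower genes outside those lists held it in 10 of 36 promoters (27.8%). The 4 stretches below are shown because each holds a CHR match, in capitals, within 65 bases of the start of a lower mitotic gene. They lie at chr16:23678830-23678895 (PLK1, plus strand), chr1:43358886-43358951 (CDC20, plus), chr14:55191547-55191612 (DLGAP5, minus) and chr10:93496579-93496644 (CEP55, plus), in RefSeq GRCh38.p14.
PLK1: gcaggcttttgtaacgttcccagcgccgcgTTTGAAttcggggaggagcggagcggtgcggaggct
CDC20: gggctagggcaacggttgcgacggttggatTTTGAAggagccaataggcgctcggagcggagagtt
DLGAP5: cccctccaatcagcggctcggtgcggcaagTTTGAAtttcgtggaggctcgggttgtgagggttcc
CEP55: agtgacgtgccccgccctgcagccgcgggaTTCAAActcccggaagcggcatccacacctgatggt
The match starts 29 bases before the start in PLK1, 65 in CDC20 and 3 in CEP55, where it is on the other strand, and 3 bases after it in DLGAP5. CCNB1 held no CHR match in the window and 2 CCAAT boxes. A match is a run of letters and was not measured as bound.

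**Figure D3:**
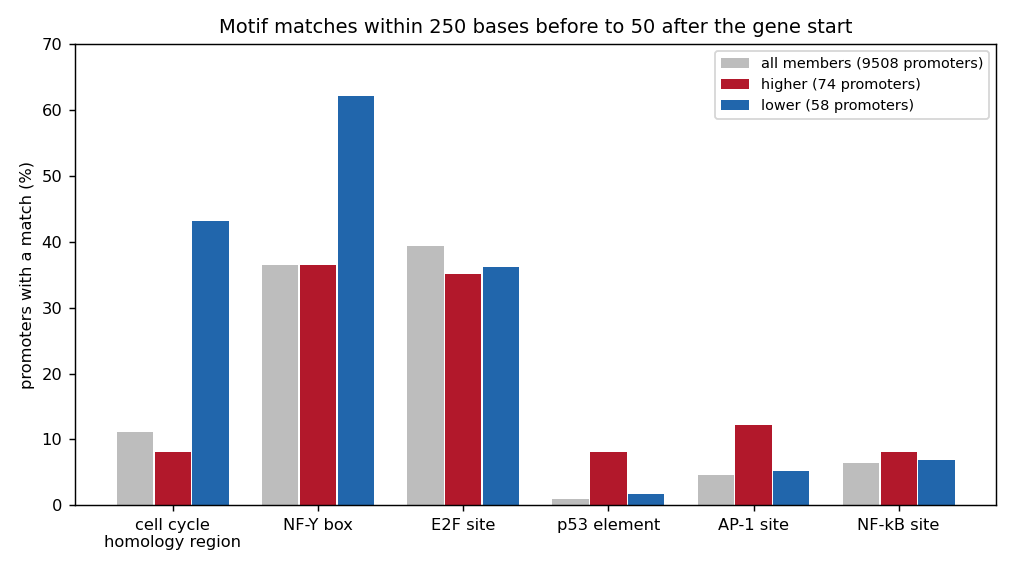
Percent of promoters (vertical) with at least 1 match to each motif (horizontal groups) for all members (grey, 9508 promoters), genes past the size rule upward (red, 74) and downward (blue, 58). The blue bars stand above the grey for the cell cycle homology region (43.1% against 11.1%) and the NF-Y box (62.1% against 36.4%), and the red bar for the p53 element is 8.11% against 1.04%.

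Genes of DNA replication stayed near 1 as a group. The 39 members had a median of 0.980 with 0 past the rule, and the minichromosome maintenance genes MCM2 to MCM7 had ratios from 0.891 (MCM3) to 0.997 (MCM5). PCNA, the replication clamp and also a p53 target, was the highest with 3245 and 4865 counts (1.48, 1.42 to 1.55), and DBF4, the activator of CDC7, the lowest with 706 and 412 (0.577, 0.510 to 0.653). Among 24 G1/S genes the median was 0.942. The inhibitor genes CDKN2C (1039 and 519 counts, 2.02-fold lower, 1.82 to 2.25) and CDKN1B (707 and 447, 0.625), which encode p18 and p27, were the lowest of the list, and CDKN2D, the p19 inhibitor gene outside it, was 2.50-fold lower with 156 and 63 counts. CCND1 had 3071 and 3833 counts (1.23, 1.18 to 1.29), CCNE1 a ratio of 0.927 and E2F1 of 0.870. The 6 replication-dependent histone genes with enough counts had a median of 0.788,, out of 28 on that list.

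The regulators of mitotic transcription had ratios nearer to 1 than the kinase and spindle lists. FOXM1 had 7265 and 5363 counts, a ratio of 0.730 (0.705 to 0.756), MYBL2, which encodes B-MYB, 5115 and 5121 (0.990, 0.952 to 1.03), and the MuvB subunit gene LIN9 360 and 286 (0.786). None of 16 members was past the rule, and the median was 0.903.

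In the 4 lists of repair and checkpoint genes outside the p53 lists 1 gene was past the rule, to be read beside the shares over all members (0.863% upward and 0.624% downward). In homologous recombination 1 of 32 members was past the rule, the helicase gene PIF1 with 406 and 49 counts, and the list's median was 1.01 (0.999 with mitochondrial genes left out of the library sizes). The next lowest, RMI2, had a ratio of 0.626, and RAD51C the highest, 1.40 (1.28 to 1.52), while BRCA1 and BRCA2 had 0.932 and 1.21. Of 21 genes of end joining and the 53BP1 pathway 0 were past the rule (median 0.979), with PRKDC, the DNA-dependent kinase, highest (3656 and 5448 counts, 1.47, 1.41 to 1.54) and the scaffold gene XRCC1 lowest (0.732). Of 20 break sensing and checkpoint genes 0 were past it (median 0.951). ATM went from 507 to 701 counts (1.37, 1.22 to 1.54), and H2AX, whose phosphorylated protein marks breaks, from 3383 to 2328 (0.681, 0.645 to 0.718). Excision and mismatch repair had a median of 1.03 over 21 members and 0 past the rule.

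The immediate early genes, which answer growth factors and stress within minutes, went in both directions. ATF3, a stress transcription factor, went from 108 to 489 counts. BTG2, which is also on the p53 arrest list, went from 532 to 2105. In contrast, EGR1 went from 2344 to 647 counts and FOS from 280 to 64. JUN had 1810 and 1960 counts (1.07), JUNB 481 and 373 (0.767), IER2 955 and 584 (0.605) and MYC 686 and 537 (0.774, 0.690 to 0.868). The median of the 21 members, 0.963, hides this split. Feedback genes of the MAPK pathway had a median of 0.893 over 16 members. DUSP1, a phosphatase that inactivates p38 and JNK, was higher (121 and 246 counts), and PHLDA1 was 2.43-fold lower (1874 and 781 counts). SPRY2 (146 and 75 counts, 0.508), ETV5 (998 and 601, 0.595) and ETV4 (1660 and 1393, 0.830), which follow ERK activity, had ratios below 1, and DUSP7 had 1.34.

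Of 16 NF-kB genes, 2 were past the rule: BIRC3, an inhibitor of apoptosis, with 38 and 157 counts, and the subunit gene RELB with 195 and 449 (2.28, 1.92 to 2.71). The precursor gene NFKB1 had a ratio of 1.53 (1.38 to 1.71), while RELA, NFKBIA and NFKB2 had 0.905, 1.08 and 1.10. The cytokine targets were sparse, with 8 and 19 counts for IL6, 2 and 14 for CXCL8 and no row for TNF. An NF-kB site was present in 7 of 13 promoters of this list (53.8%) and in 6.45% of members. Interferon-stimulated genes had 0 of 16 past the rule and a median of 1.02. Heat shock genes had 0 of 17 (median 1.07) and NRF2 targets 0 of 17 (median 1.13), where GCLM, which sets the rate of glutathione synthesis with GCLC, was highest with 440 and 833 counts (1.87, 1.67 to 2.11). In the unfolded protein and integrated stress response, SESN2 alone of 23 was past it, and ATF4 and DDIT3 had ratios of 0.832 and 0.770.

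Genes of cholesterol synthesis and uptake were lower in small steps. Of 23 members 21 had a ratio below 1, 0 were past the rule and the median was 0.847. INSIG1 (579 and 321 counts, 0.548), SREBF1 (2535 and 1664, 0.649) and SQLE, which makes squalene epoxide (2897 and 2014, 0.688), were among the lowest. All are known targets of the SREBP factors. Circadian clock genes had a median of 0.827 over 16 members with 1 past the rule, DBP (487 and 222 counts, 2.22-fold lower). PER1 and NR1D1 had ratios of 0.646 and 0.650 and CLOCK of 1.16, but the median was 1.04 when genes that overlap another gene were left out.

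All 15 mitochondrially encoded genes had a ratio below 1 (median 0.742), though none was past the rule, and their summed level went from 52700 to 41070 CPM. The 10 largest losses in level of any gene were all among them, led by MT-ND4, a subunit of complex I, from 6645 to 4685 CPM, and MT-CO1, a subunit of cytochrome oxidase, from 7621 to 5773 CPM. The 2 ribosomal RNA genes differed from the messengers, with ratios of 0.982 (MT-RNR2, 100037 and 99387 counts) and 0.963 (MT-RNR1), against 0.643 to 0.836 for the 13 protein-coding genes. Nuclear genes of oxidative phosphorylation did not share this: 0 of 32 were past the rule and their median was 1.01, or 0.996 with mitochondrial genes left out of the library sizes. Ribosomal protein genes had ratios from 0.914 to 1.09 (37 members, median 1.01). Genes of ribosome biogenesis had a ratio above 1 in 22 of 24 members (median 1.16), with RRP12 at 1.55 (564 and 885 counts) and DDX21 at 1.36 (2308 and 3167 counts), and 0 past the rule.

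Several genes of the matrix and of actin were among the 10 largest gains in level of single genes. ACTB went from 7100 to 7983 CPM, COL1A1, the main collagen of bone, from 2768 to 3376 CPM and FN1, fibronectin, from 1754 to 2296 CPM. Their ratios were 1.12, 1.22 and 1.31, and CDKN1A had the fourth largest gain, from 180.4 to 619.5 CPM. Of 25 collagen and matrix genes 20 had a ratio above 1 (median 1.10), with COL12A1 (2804 and 4626 counts, 1.63) and HSPG2, perlecan (1390 and 2137, 1.52), the highest, and 0 past the rule. Among targets of TGF-beta, BMP and YAP, CCN2 had 1379 and 1566 counts (1.12), SMAD7 192 and 187 (0.963) and BMP4 772 and 426 (0.546, 0.484 to 0.615). In the Wnt and Notch list SOX2 was lower (689 and 215 counts), and JAG1, a Notch ligand (233 and 429, 1.82), and the receptor gene NOTCH1 (553 and 952, 1.70) had the highest ratios.

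Of the 112 higher genes 66 belonged to no list. Those described here, mostly ligands and cell surface proteins, were picked after their values were seen, and how common such genes are among the 66 was not counted. CSF1, the macrophage growth factor, went from 240 to 677 counts (2.79, 2.40 to 3.25), INHBA, the activin A subunit, from 459 to 1021 (2.20, 1.97 to 2.46), IL11 from 80 to 186 (2.30, 1.76 to 3.03) and NRG1, a ligand of ERBB receptors, from 169 to 357 (2.09, 1.74 to 2.52). EFNB1, an ephrin, went from 293 to 932 counts (3.15, 2.76 to 3.60) and SEMA7A, a semaphorin, from 382 to 1005 (2.60, 2.31 to 2.94). The TNF family ligand gene CD70 (335 and 702 counts, 2.07) and the TNF receptor family gene TNFRSF9 (104 and 226, 2.15) were past the rule too. So were the integrin gene ITGA2 (538 and 1227, 2.26), the proteoglycan gene CSPG4 (465 and 1222, 2.60), the RAS effector gene RIN1 (257 and 836, 3.22), the phosphatase gene PTP4A1 (2008 and 4634, 2.28) and FHL2, a LIM domain gene (1479 and 3353, 2.24).

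Of the 81 lower genes 47 belonged to no list. Some are named for cell division or centrosomes, among them CDCA2 (774 and 331 counts, 2.37-fold lower), CDCA3 (988 and 447, 2.23-fold lower), PIMREG (538 and 270, 2.02-fold lower) and CNTRL (337 and 163, 2.09-fold lower). Others act in signalling: PDGFB, a growth factor (119 and 52 counts, 2.31-fold lower), and PDGFRA, a receptor of the same family of ligands (500 and 215, 2.35-fold lower), the kinase gene MAP2K6 (154 and 51, 3.05-fold lower) and BMF, a BH3 protein gene (256 and 87, 2.98-fold lower). SLC12A7, a potassium chloride cotransporter gene, had the second most counts of the lower genes, 4319 and 1956 (2.23-fold lower, 2.12 to 2.36).

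The TIRR iCLIP libraries gave a replicated measurement in other cells of the line after the same dose, of RNA crosslinked to TIRR and not of RNA level. It was not used to choose the members. The edgeR quasi-likelihood test called 224 of 9230 genes upward (2.43%) and 99 downward (1.07%) at an adjusted p below 0.05. Of the 112 genes higher in RNA-seq 58 could be tested in iCLIP, and 37 of these rose (63.8%) and 0 fell. At an unadjusted p below 0.05, 47 rose and 1 fell. DESeq2, which filters genes by its own rule, called 23 of the 112 upward and 0 downward. Of the 81 lower genes 41 could be tested, and 14 fell (34.1%) and 0 rose. At an unadjusted p below 0.05, 26 fell and 0 rose. DESeq2 gave only 3 of the 81 an adjusted p and called 0, with 16 below 0.05 unadjusted, all falls. The median log2 fold change in iCLIP was 1.42 for the higher genes, -0.87 for the lower genes and -0.01 for all 7096 members tested. Without untreated library 2 edgeR called 8 of the lower genes and without irradiated library 2 it called 9, with SLC12A7 then rising.

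**Figure D4:**
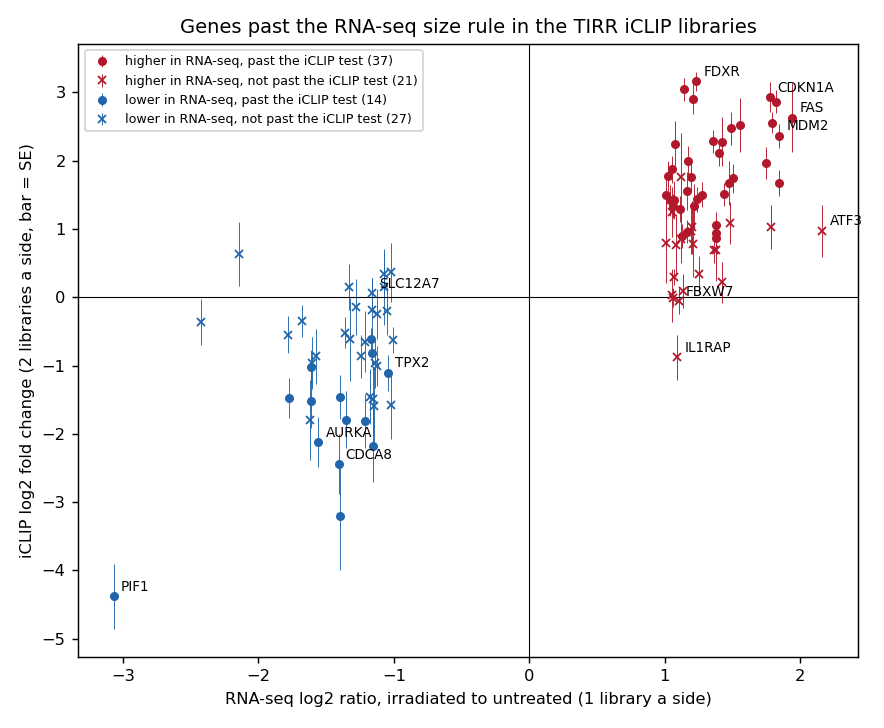
Log2 fold change in TIRR iCLIP (vertical, edgeR fit over 2 untreated and 2 irradiated libraries, bars are standard errors) against the RNA-seq log2 ratio (horizontal, 1 library a side) for the 99 genes past the RNA-seq size rule that were tested in iCLIP. Circles are past the iCLIP test and crosses are not, 37 of 58 red points are circles in the upper right and 14 of 41 blue points are circles in the lower left.

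Genes outside the p53 lists were among those that rose in both measurements. PARD6G, a cell polarity gene, had 50 and 61 iCLIP counts untreated and 137 and 209 irradiated, 4.87-fold more after scaling (edgeR adjusted p = 1.22e-07), and 559 and 1444 counts in RNA-seq. CD70 had 46 and 40, then 77 and 126 (3.66-fold, edgeR adjusted p = 1.19e-05), POU2F2, a transcription factor gene, 58 and 63, then 77 and 134 (2.70-fold, 8.55e-05), and SEMA7A 67 and 67, then 65 and 116 (2.09-fold, 0.00176). The irradiated iCLIP libraries were smaller, so equal counts stand for a larger share there, and after scaling the untreated and irradiated ranges of these 4 genes did not overlap. RRM2B rose 5.57-fold (edgeR adjusted p = 4.67e-06), against its RNA-seq ratio of 2.81.

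Other genes were higher in RNA-seq and did not pass the iCLIP test. FBXW7 had 119 and 101 counts before and 46 and 91 after, in log2 a difference of -0.06 ± 0.19 (SE, edgeR adjusted p = 0.934), and NRG1 had 220 and 220, then 107 and 175, -0.00 ± 0.14 (edgeR adjusted p = 0.995). INHBA had 0.10 ± 0.25 (edgeR adjusted p = 0.916) and IL1RAP, an interleukin 1 receptor subunit gene with an RNA-seq ratio of 2.13, -0.88 ± 0.33 (0.198). A p that misses the threshold does not show that these genes kept their level in iCLIP. Genes such as BTG2, PLK3, PLK1 and EGR1, with up to 2542 counts in RNA-seq, had no row in any of the 4 iCLIP tables and could not be compared.

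Among the lower genes, TNFAIP8L1 (931 and 276 RNA-seq counts) had 59 and 58 iCLIP counts before and 7 and 20 after, in log2 a difference of -1.48 ± 0.29 (SE, edgeR adjusted p = 0.00566). KIF14 had 53 and 51, then 13 and 11 (-1.46 ± 0.32, edgeR adjusted p = 0.0138, but 0.223 without irradiated library 2). STARD8 had 71 and 68, then 16 and 28 (-1.02 ± 0.24, 0.0238), and lost its call with a replicate block (-1.02, edgeR adjusted p = 0.0687). Its call was also lost without untreated library 1 (log2 difference -0.985), untreated library 2 (-1.08) or irradiated library 2 (-1.06). FOS had 8 and 14, then 9 and 13 counts, in log2 a difference of 0.63 ± 0.46 (edgeR adjusted p = 0.593), and SLC12A7 1114 and 1651, then 934 and 776 (0.06 ± 0.22, 0.938). In the other direction, of the 224 genes that rose in iCLIP 183 were members, of which 154 had an RNA-seq ratio above 1 and 37 were past the rule (median 1.36). Of the 99 that fell 86 were members, of which 80 had a ratio below 1 and 14 were past it (median 0.697).

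Median ratios differed little between classes of gene length. Members shorter than 20 kb had median ratios from 0.975 to 0.987 in 4 length classes, those from 20 to 500 kb from 1.003 to 1.03 in another 4, and the 190 members of at least 500 kb 0.987, or 0.997 scaled by library totals. In that longest class 1 gene, NRG1, was past the rule upward and 0 downward.

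Overlap between genes limits which gene a ratio belongs to. Of the higher genes 54 of 100 with a position overlap another RefSeq gene and of the lower ones 38 of 74, against 62.5% of members. The lengths of all genes and the intergenic line add up to 5.97 Gb, against the 3.09 Gb that 1 strand of the genome covers at least, so the lengths span more than 1 strand, and 44.4% of counts lay on the intergenic line. Whether reads were counted by strand is not stated, and genes with an overlapping antisense gene often showed the same ratio on both. XPC and XPC-AS1 had 804 and 652 counts untreated and 1627 and 1318 irradiated, ratios of 2.001 and 1.999. PARD6G and PARD6G-AS1 had ratios of 2.55 and 2.68, PHLDA1 and PHLDA1-AS1 of 0.412 and 0.367, and TROAP, a spindle gene, and TROAP-AS1 of 0.444 and 0.530. Without the strand setting it cannot be said whether the reads in such a pair belong to one gene or to both. Across 298 overlapping pairs the log2 ratios had a Pearson correlation of 0.702 and a Spearman correlation of 0.592, against 0.190 and 0.146 in 95 antisense or divergent pairs that do not overlap, where pairs share both libraries and overlapping ones also share sequence. Other overlapping pairs had different ratios, such as OIP5 (221 and 124 counts, 0.555) and OIP5-AS1 (1019 and 1049, 1.02), and KIF23 (0.573) and KIF23-AS1 (1.09, 0.859 to 1.39). Overlapping called genes in the same direction also include MDM2 with CPM, TP53INP1 with NDUFAF6 and NDE1 with MYH11.

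**Figure D5:**
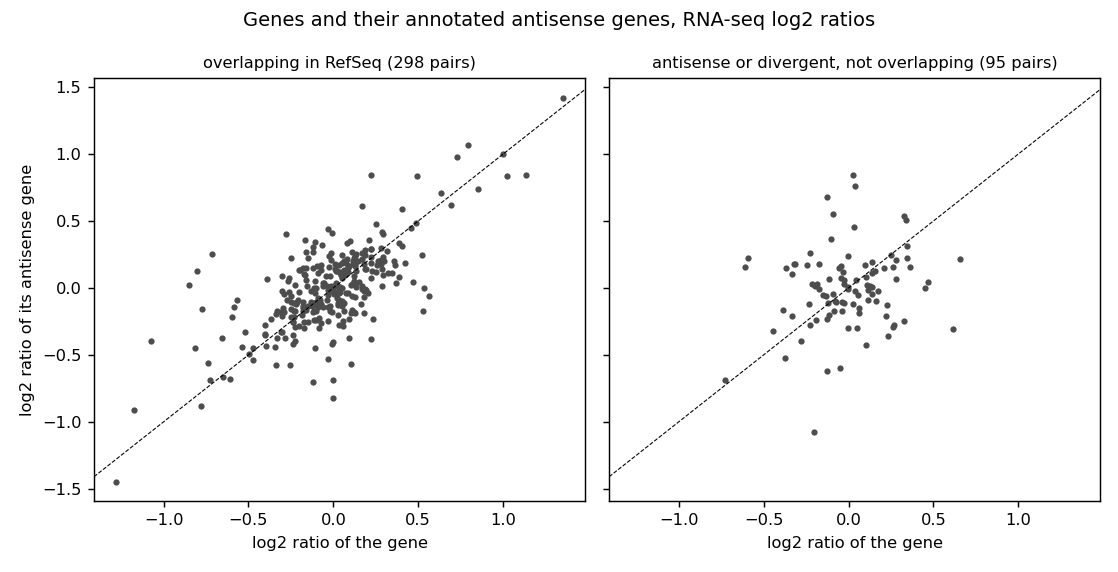
RNA-seq log2 ratio of a gene (horizontal) against that of its annotated antisense or divergent gene (vertical), each point 1 pair, for 298 antisense pairs that overlap (left) and 95 pairs that do not (right), with the dashed line of equal ratios. Points on the left lie along the line (Pearson 0.702) more closely than those on the right (0.190).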

How the data were processed

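Total RNA of the 2 RNA-seq samples was purified with a column kit and made into Illumina libraries, per the labels' protocols. The authors deposited 1 table per library with whole-number cDNA counts per gene and for an intergenic line, each gene's percent of all counts and its length in bases, per the file headers. The genome build was hg38, and kallisto 0.44.0 is named for RNA-seq, per the submitters' processing notes. Not given in the sources used here are the part kallisto played in these tables, the aligner, the handling of duplicates and whether strand was used. The deposited percent values were not used for any result.

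Counts were summed per gene identifier, and 99.7% of the RNA-seq identifiers matched the gene name table. The intergenic line (44.4% of each RNA-seq library and 30.6% to 31.3% of each iCLIP library) was left out. Ratios were scaled by TMM sizes without the pseudocounts of a fit, and their 95% intervals are exact conditional (Clopper-Pearson) intervals that cover counting error only. The size rule and its minimum of 100 counts are given in the report. CPM values divide a count by the TMM-scaled size and multiply it by 1000000. The iCLIP libraries (583192 to 1155052 counts) were compared by the quasi-likelihood F test of edgeR 4.0.16 under R 4.3.3 (filterByExpr, TMM, Benjamini-Hochberg at 0.05, two-sided), with DESeq2 1.42.0 as an alternative. The labels do not say that replicates are separate cultures, so its p-values reflect only how these libraries vary, and that variation may be technical. On simulated counts of 9232 genes, the edgeR test recovered 82% of 2-fold rises, 54% of 2-fold falls, 100% of 4-fold rises and 98% of 4-fold falls. Each of these 4 shares rests on 50 genes, and genes with low expected counts were given no change. The simulated spread between replicates was fixed and not taken from these libraries, so recovery in the real data was not measured. Promoters came from RefSeq (GRCh38.p14) and matched 9508 of 12977 members by symbol. Python 3.11.15, numpy 2.4.6, pandas 2.3.3, scipy 1.17.1, matplotlib 3.10.9 and limma 3.58.1 were used.

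The members, the 49 gene lists and the motifs were chosen with earlier results of these data known. The rule for named genes took NEAT1, MALAT1, NUDT16L1 and TP53BP1, the 20 largest and 20 smallest ratios past the size rule, the 10 largest gains and losses in CPM, and of each list the 3 members with the most counts and up to 10 members past the rule. Other genes were named after their values were seen. Library scaling, the count minimum, the size rule, overlapping genes, the iCLIP tool and filter, the replicate block, left-out replicates and the mismatches of the p53 element were varied. Some genes that the rule names are not reported here.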

Additional observations from a re-analysis of the deposited data

How the results depend on the processing

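The counts of genes past the size rule, 112 higher and 81 lower, were 115 and 77 with library totals, 117 and 77 with DESeq2 size factors, and 106 and 85 with mitochondrial genes left out of the library sizes, a setting chosen after seeing the data. They followed the count minimum: 171 and 108 genes at 20 counts, 208 and 117 with no minimum, and 56 and 42 at 500 counts. With a 1.5-fold rule and an interval beyond 1.2, 361 genes were higher and 427 lower, so that the larger side changed. With genes that overlap another gene left out, 58 were higher and 43 lower. Of the lists, 8 had at least 20% of their members past the rule, and 13 with the 1.5-fold rule. The share of higher promoters with a p53 element was 8.11%, or 4.05% with at most 2 mismatches. The medians of 10 lists changed side of 1 in at least 1 setting, among them circadian clock genes (0.827 to 1.043 with overlapping genes left out), immediate early genes (0.963 to 1.03 at 500 counts) and targets of TGF-beta, BMP and YAP (1.043 to 0.95 with no minimum), while no p53 or mitotic list did.

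In iCLIP, DESeq2 called 97 genes upward and 26 downward, of which 23 were among the higher and 0 among the lower RNA-seq genes. Leaving out 1 library gave 145 to 289 rises and 41 to 132 falls, with 32 to 39 among the higher and 8 to 15 among the lower genes. In these fits the lone library of a group is assumed to vary like the other group. Libraries with the same replicate number did not shift together (correlation of deviations -0.0826), which does not show whether they were prepared as pairs. With a replicate block 150 genes rose and 40 fell, 35 and 9 of them among the higher and lower genes. Of the 51 shared calls 51 remained with library totals and with no filter, 44 with the block, 40 to 48 with 1 library left out, and 23 of the 25 that had an adjusted p in DESeq2. SLC12A7, not called with all 4 libraries, rose in iCLIP without irradiated library 2.

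With 1 library a side, the RNA-seq ratios have no replicate check at any depth. Counting error is wider for low genes, with an interval of 1.69 to 3.01 for FLG (71 and 161 counts) and of 1.46 to 1.56 for PLXNB2 (6143 and 9371 counts). A member with a sum below 200 counts must have unequal counts, since membership asks for 100 in either library.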

Other observations

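Mitochondrially encoded genes (median 0.742) and chromosome Y were left out of a comparison between chromosomes. Among the autosomes and X, chromosome 19 had the lowest median ratio, 0.936 over 756 members. The others ranged from 0.968 (chromosome 22) to 1.05 (chromosome 21). Chromosome 19 held 9 genes past the size rule upward (1.19%, against 0.863% of all members), among them BBC3, RELB and GDF15, and 4 downward (0.529%, against 0.624%).

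Long noncoding RNA genes were past the rule about as often as other members, 6 of 709 upward (0.846%) and 3 downward (0.423%), against 0.866% and 0.654% of 10860 protein-coding genes. NRSN2-AS1 had the most counts of these 9, 2722 and 1306 (2.11-fold lower), while NRSN2, which it does not overlap in RefSeq (the deposited table gives NRSN2-AS1 a length of 31631 bases, the RefSeq span is shorter), had 1143 and 1002 counts (0.867). PVT1, the MYC neighbour, had 376 and 606 counts (1.59, 1.40 to 1.82), MIAT 1020 and 686 (0.665), and SNHG3 732 and 463 (0.626).

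Within 10 kb of a called gene, 36 non-overlapping members lay near higher genes with a median ratio of 1.09, and 40 lay near lower genes with a median ratio of 0.980. The only such pair with both genes past the rule was GRIN2C and FDXR on chromosome 17, 964 bases apart.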
